A study of Mus musculus with 6 samples.

Results

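Expression of 10 genes of prostaglandin synthesis, breakdown and reception was followed in primary neonatal mouse cardiomyocytes (NMCMs) under hypoxia (HO). They were chosen by name from the 57010 genes of the count table, and all 10 were found: Ptgs1, Ptgs2, Ptges, Ptges2, Ptgis, Ptgds, Hpgd, Ptger2, Ptger4 and Ptgir. The data were 6 RNA-seq libraries, 3 of hypoxic NMCMs given vehicle (V1 to V3, the HO + Vehicle group) and 3 of hypoxic NMCMs given β-sitosterol (T4 to T6, the HO + β-SITO group). β-Sitosterol is a plant sterol. Hypoxia was shared by both groups, so the comparison sets hypoxic libraries given the sterol against hypoxic libraries given vehicle. The effect of hypoxia cannot be read from it. The cells came from hearts of neonatal C57BL/6 mice and were separated from fibroblasts by differential adhesion. For these libraries the sources used here gave neither the β-SITO concentration nor the hours of hypoxia, nor whether the 3 libraries of a group came from separate cultures. The p-values therefore measure the spread between these libraries, which may be technical.

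Prostaglandins are lipid signals made from arachidonic acid, which phospholipases release from membranes. The cyclooxygenases COX-1 (Ptgs1, mostly constitutive) and COX-2 (Ptgs2, inducible by inflammatory signals) convert it to prostaglandin H2, and terminal synthases turn this into prostaglandin E2, D2, prostacyclin (prostaglandin I2) and others. The products act on G protein-coupled receptors of neighbouring cells and are inactivated by 15-hydroxyprostaglandin dehydrogenase (Hpgd). In the heart and vessels prostacyclin is known as a vasodilator and an inhibitor of platelet aggregation, and prostaglandin E2 as a mediator of inflammation and of fibroblast behaviour.

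β-SITO-treated libraries held far less transcript of the inducible enzymes Ptgs2 and Ptges and of the prostacyclin receptor Ptgir, and more transcript of Ptgs1 and of the inactivating enzyme Hpgd. Differentially expressed genes (DEGs) were those with an adjusted p under 0.05 in edgeR's quasi-likelihood test and a change of more than 2-fold, the cutoffs of the study. By this rule 3 members fell, 2 rose and 5 were not DEGs. Of all 14799 genes tested, 10.1% fell and 12.8% rose by the same rule, together 22.8%. Each of the 3 members that fell did so by more than 8-fold, as did 3.12% of all genes tested. Hpgd rose by more than 8-fold, as did 1.43% of all genes. For 8 of the 10 members the ranges of the groups were separate, as for 70.5% of all genes. With no fold cutoff 8 members passed against 66.8% of all genes, 4 of them higher (33% of all genes) and 4 lower (33.8%). The median log2 fold change was -0.30 over the members and -0.01 over all genes tested. Members were chosen with earlier results of these data known, so these shares do not test the set.

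**Figure D1:**
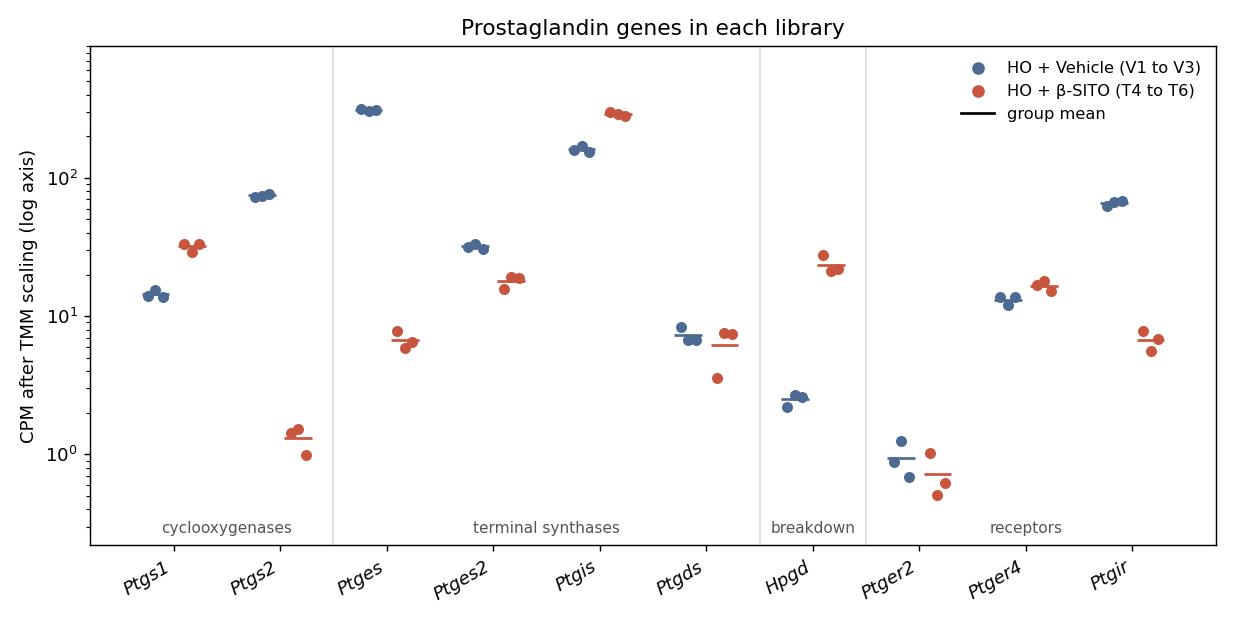
Expression of the 10 prostaglandin genes in each library, as CPM (counts scaled to the effective library size) on a log axis, with 1 point per library, bars at the group means and n = 3 per group. Ptgs2, Ptges and Ptgir sit lower and Ptgs1 and Hpgd higher in the HO + β-SITO libraries, while the groups overlap for Ptgds and Ptger2.

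The 6 libraries held 16694734 to 18460522 counts each. Replicates varied by a biological coefficient of variation of 6.52%. T4 stood apart from T5 and T6: the counts of T4 differed from T5 and T6 by 7.98 and 8.40 times the sampling variance, against 1.90 between T5 and T6 and 4.42 to 7.01 among the HO + Vehicle libraries. The cardiomyocyte label was checked against markers. All 12 cardiomyocyte markers were tested and their summed level, in CPM (counts scaled to the effective library size), was 6380 to 7391 in V1 to V3 and 5797, 9747 and 9878 in T4, T5 and T6. The 10 fibroblast markers summed to 30135 to 31417 CPM and 45511 to 46657 CPM, so on this scale, which is not divided by gene length, they summed to more than the cardiomyocyte markers in every library. Per kilobase of exon, the highest fibroblast marker also exceeded the highest cardiomyocyte marker in both groups. These were Col1a1 (1385 ± 70.4) and Actc1 (902 ± 90.6) under vehicle, and Col3a1 (1918 ± 38.5) and Nppa (1357 ± 529) under β-SITO (mean ± SD, n = 3). Both comparisons rest on the collagen genes Col1a1, Col1a2 and Col3a1. Their means were 9090, 6793 and 10411 CPM under vehicle and 12182, 10203 and 18827 CPM under β-SITO. Of the other fibroblast markers Dcn was highest, at 1905 and 1330 CPM. Per kilobase the highest others were Dcn (326 ± 23.2) under vehicle and Fbln1 (259 ± 6.12) under β-SITO, below Actc1 and Nppa. NMCM is kept here as the name of the culture, and its purity was not tested. In bulk RNA, fewer cells of a type and less RNA per cell cannot be told apart. In the count table the names of T4 to T6 end in a letter that those of V1 to V3 lack, and its meaning was not given, so whatever it marks and the sterol cannot be told apart.

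Promoter sequence of the members was searched for motifs as a description, without a test. The RefSeq table (GRCm38.p6) held 9 of the 10 members, and the 250 bases before the RefSeq start of each gene were searched on both strands. A RefSeq start can differ from the start of the gene as counted, and for Ptges it lies inside the counted gene. The sequences of the 5 DEGs are printed 5′ to 3′ on the strand of the gene, with capitals for matches on either strand to the C/EBP motif TTNNGNAA and the GC box GGGCGG:
Ptgs2 (chr1:150099781-150100030, plus strand): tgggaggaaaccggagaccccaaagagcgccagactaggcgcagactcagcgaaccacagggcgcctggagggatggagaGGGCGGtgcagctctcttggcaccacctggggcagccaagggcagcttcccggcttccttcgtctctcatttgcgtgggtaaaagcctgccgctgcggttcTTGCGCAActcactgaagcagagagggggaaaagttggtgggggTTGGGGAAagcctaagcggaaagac
Ptges (chr2:30903298-30903547, minus strand): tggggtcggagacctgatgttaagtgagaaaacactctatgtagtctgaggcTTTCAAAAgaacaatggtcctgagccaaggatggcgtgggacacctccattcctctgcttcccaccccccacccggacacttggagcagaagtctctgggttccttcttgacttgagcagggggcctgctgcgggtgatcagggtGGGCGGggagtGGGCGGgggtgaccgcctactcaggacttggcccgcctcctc
Ptgir (chr7:16906240-16906489, plus strand): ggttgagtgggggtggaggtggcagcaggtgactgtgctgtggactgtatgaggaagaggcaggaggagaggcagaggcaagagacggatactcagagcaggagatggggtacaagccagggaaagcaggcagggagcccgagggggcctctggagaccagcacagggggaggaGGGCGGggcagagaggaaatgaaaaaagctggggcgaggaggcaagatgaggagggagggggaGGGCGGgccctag
Ptgs1 (chr2:36230176-36230425, plus strand): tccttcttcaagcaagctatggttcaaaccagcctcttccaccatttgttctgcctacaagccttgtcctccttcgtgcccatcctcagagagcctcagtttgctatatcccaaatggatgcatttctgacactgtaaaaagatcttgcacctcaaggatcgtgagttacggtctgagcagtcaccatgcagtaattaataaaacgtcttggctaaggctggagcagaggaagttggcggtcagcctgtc
Hpgd (chr8:56294302-56294551, plus strand): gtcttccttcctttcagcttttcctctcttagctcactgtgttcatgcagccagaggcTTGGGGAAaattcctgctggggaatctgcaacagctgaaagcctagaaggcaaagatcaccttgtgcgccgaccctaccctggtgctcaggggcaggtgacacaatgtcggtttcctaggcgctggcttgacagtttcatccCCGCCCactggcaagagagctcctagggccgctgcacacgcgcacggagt

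The Ptgs2 window held a pair of C/EBP matches, TTGCGCAA from -69 to -62 and TTGGGGAA from -25 to -18, counted from the gene start, and 1 GC box. Ptges held 2 GC boxes and 1 C/EBP match, Ptgir 2 GC boxes and Hpgd 1 of each. Ptgs1 held neither. These motifs are common: of 32841 promoter windows of the same length, 36.9% held a C/EBP match and 32.7% a GC box, against 6 and 5 of the 9 members. The NF-κB consensus occurred in 7.25% of all windows and in 1 of the 9 members, Ptgds, which also held the only AP-1 match (TGANTCA, 6.75% of windows). The E-box CACGTG (6.02%) and the hypoxia element core ACGTG, which overlaps it (16.6%), occurred in 1 member, Ptges2. The short CRE TGACG (17.8%), the full CRE TGACGTCA that contains it (1.55%), the ISRE core of GAAA, any 2 bases and GAAA (2.98%) and the TATA box TATAAA (12.4%) were found in 0 of the 9. A match is a description of the letters, and a missing match says only that these letters are not in this window.

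The cyclooxygenases moved in opposite directions. Ptgs2 (ENSMUSG00000032487, chromosome 1 from 149975782 to 149983978 in the deposited table, whose build is GRCm39 per the submitters' processing notes) had 73.1, 74.1 and 76.7 CPM in V1 to V3 and 1.44, 1.52 and 0.988 CPM in T4 to T6. These values rest on 1159 to 1239 counts against 19 to 28 counts per library. All HO + β-SITO libraries lay far below all HO + Vehicle libraries, and Ptgs2 fell by 5.83 on the log2 scale (SE 0.113, 56.7-fold, adjusted p = 8.73e-16). Ptgs1 (ENSMUSG00000047250, chromosome 2 from 36120438 to 36142284) had 14.1, 15.4 and 13.7 CPM in V1 to V3 and 33.3, 29.1 and 33.4 CPM in T4 to T6. The groups did not overlap and Ptgs1 rose by 1.15 on the log2 scale (SE 0.0878, 2.22-fold, adjusted p = 1.44e-08). Its 95% interval ran from 0.96 to 1.34 and included 2-fold, and glmTreat, which asks for a change beyond 2-fold, did not call it (adjusted p = 0.0871).

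The balance between the pair was read as a ratio within each library, which does not depend on how libraries are scaled to each other. There were 5.20, 4.81 and 5.61 counts of Ptgs2 for each count of Ptgs1 in V1 to V3 and 0.0432, 0.0520 and 0.0295 in T4 to T6. Ptgs2 transcripts were thus several times as frequent as Ptgs1 transcripts under vehicle and a small fraction of them under β-SITO. The log2 ratio went from 2.37 ± 0.110 to -4.60 ± 0.410 (SD, n = 3), a 126-fold difference (two-sided exact permutation p = 0.1, the lowest that 3 libraries against 3 can give, and 0.125 after Benjamini-Hochberg adjustment over 5 ratios). Per kilobase of exon, Ptgs2 made up 80.3% to 82.6% of the cyclooxygenase transcripts under vehicle and 2.44% to 4.23% under β-SITO.

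**Figure D2:**
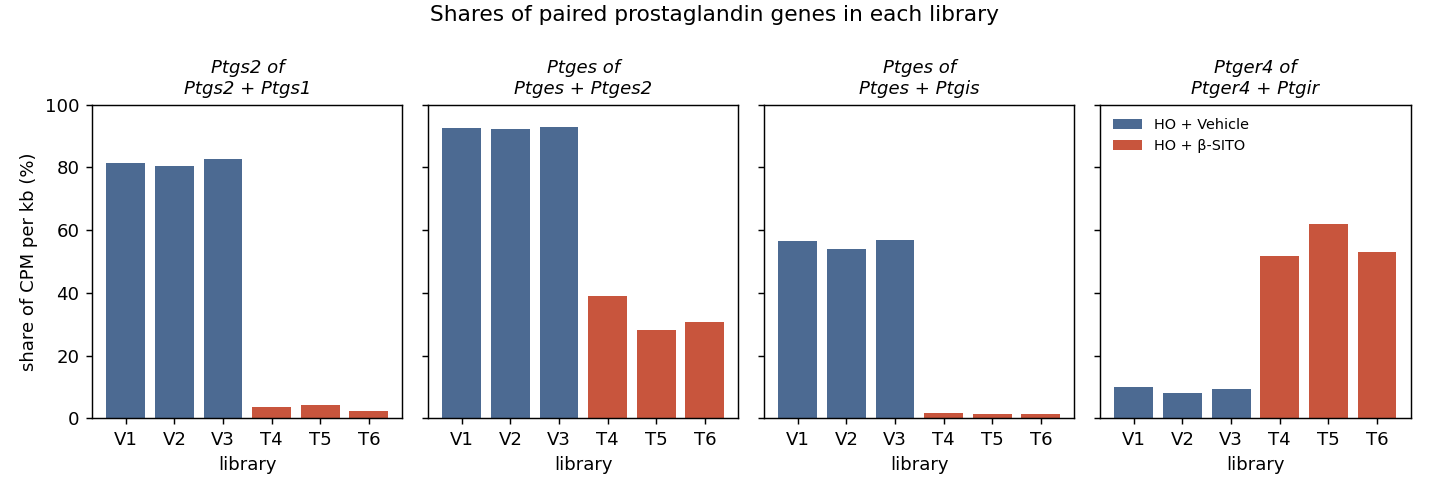
Share of the first gene in the summed CPM per kb of exon of a pair of genes, with 1 bar per library. Ptgs2 holds over 80% of the cyclooxygenase pair in V1 to V3 and under 5% in T4 to T6. Ptger4 goes from under 10% to over 50% of its pair with Ptgir, where Ptgir fell 9.75-fold and Ptger4 rose 1.27-fold.

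Among the terminal synthases, Ptges, the inducible microsomal prostaglandin E synthase that is functionally coupled to COX-2, fell most. Ptges (ENSMUSG00000050737, chromosome 2 from 30779483 to 30819875) had 315, 307 and 310 CPM in V1 to V3 and 7.85, 5.89 and 6.5 CPM in T4 to T6. Counts went from 4898 to 5012 per library down to 105 to 153. The groups lay far apart and Ptges fell by 5.52 on the log2 scale (SE 0.0870, 45.9-fold, adjusted p = 1.19e-16). Ptges2 (ENSMUSG00000026820, chromosome 2 from 32285908 to 32295784), which encodes a membrane-associated prostaglandin E synthase that is expressed constitutively, had 31.7, 33.3 and 30.8 CPM against 15.7, 19.2 and 18.9 CPM. Its libraries did not overlap, and it passed the test (log2 fold change -0.84, SE 0.0881, adjusted p = 6.18e-07) without reaching 2-fold. Ptges had 9.94, 9.21 and 10.1 counts for each Ptges2 count in V1 to V3 and 0.5, 0.307 and 0.344 in T4 to T6, a 25.8-fold difference (two-sided exact permutation p = 0.1, adjusted 0.125).

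Ptgis, which encodes prostacyclin synthase, went the other way. Ptgis (ENSMUSG00000017969, chromosome 2 from 167033725 to 167082524) had 158, 170 and 154 CPM in V1 to V3 and 299.7, 289 and 278 CPM in T4 to T6. Every HO + β-SITO library was above every HO + Vehicle library, with a log2 fold change of 0.85 (SE 0.0600, adjusted p = 5.79e-09) whose 95% interval of 0.72 to 0.97 stayed below 2-fold. Ptgis had 0.502, 0.554 and 0.497 counts for each Ptges count in V1 to V3 and 38.2, 49.1 and 42.8 in T4 to T6. Its log2 ratio differed by 6.38, or 83.1-fold (two-sided exact permutation p = 0.1, adjusted 0.125). Per kilobase, Ptges was 54.1% to 56.8% of the sum of Ptges and Ptgis under vehicle and 1.31% to 1.68% under β-SITO.

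Ptgds, the lipocalin-type prostaglandin D synthase, had no detectable difference. Ptgds (ENSMUSG00000015090, chromosome 2 from 25356721 to 25360058) had 8.33, 6.76 and 6.69 CPM in V1 to V3 and 3.59, 7.58 and 7.49 CPM in T4 to T6. T4 was low and T5 and T6 lay within the range of the vehicle libraries. The log2 fold change was -0.23 (95% interval -0.69 to 0.24, adjusted p = 0.372), and without T4 it was 0.05. T4 was also the library with the lowest summed cardiomyocyte markers, and the part of this in the Ptgds value was not tested.

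Hpgd, which oxidises and so inactivates prostaglandins, had the largest increase among the members. Hpgd (ENSMUSG00000031613, chromosome 8 from 56747620 to 56774078) had 2.21, 2.69 and 2.60 CPM in V1 to V3 and 27.5, 21.3 and 21.9 CPM in T4 to T6, from 35 to 43 and 380 to 536 counts. The groups did not overlap, and Hpgd rose by 3.23 on the log2 scale (SE 0.143, 9.41-fold, adjusted p = 1.86e-11). T4, the highest of the 3, also had the highest summed macrophage markers, and without it the log2 fold change was 3.11 and Hpgd was still a DEG. For each Hpgd count there were 143, 114 and 119 Ptges counts in V1 to V3 and 0.285, 0.276 and 0.297 in T4 to T6. This 429-fold difference was the largest of the 5 ratios (two-sided exact permutation p = 0.1, adjusted 0.125). It combines the rise of Hpgd with the fall of Ptges and is not a separate result. The other ratios likewise combine the fold changes of their genes and are not separate results.

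Of the 3 receptors Ptgir alone was a DEG. Ptgir (ENSMUSG00000043017, chromosome 7 from 16640415 to 16644830), the prostacyclin receptor IP, had 62.7, 67.3 and 68.0 CPM in V1 to V3 and 7.85, 5.56 and 6.81 CPM in T4 to T6. The groups did not overlap and Ptgir fell by 3.28 on the log2 scale (SE 0.1, 9.75-fold, adjusted p = 1.81e-13), while the synthase of its ligand, Ptgis, was 1.80-fold higher. Ptger4 (ENSMUSG00000039942, chromosome 15 from 5236142 to 5273668), the prostaglandin E2 receptor EP4, had 13.8, 12.0 and 13.7 CPM against 16.8, 17.9 and 15.2 CPM. Its libraries did not overlap and its log2 fold change of 0.34 (95% interval 0.13 to 0.55, adjusted p = 0.00650) passed the test without reaching 2-fold. Ptger4 overlaps Ttc33 on the opposite strand, whether counting used strand was not given, and Ttc33 had a log2 fold change of -0.04 (adjusted p = 0.649). Ptger2 (ENSMUSG00000037759, chromosome 14 from 45225652 to 45241277), the EP2 receptor, was near the limit of detection with 9 to 20 counts per library. It had 0.883, 1.25 and 0.681 CPM against 1.03, 0.505 and 0.624 CPM, with overlapping groups. Its log2 fold change of -0.37 had an interval of -1.14 to 0.40 (adjusted p = 0.381), so a 2-fold decrease could not be told from no difference at this depth. The ratio of Ptger4 to Ptger2 differed by 0.74 on the log2 scale and overlapped between the groups (two-sided exact permutation p = 0.2, adjusted 0.2).

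On the genome 5 of the 10 members lie on chromosome 2, and they did not share a direction, since Ptges fell, Ptgs1 rose, and Ptges2, Ptgis and Ptgds were not DEGs.

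**Figure D3:**
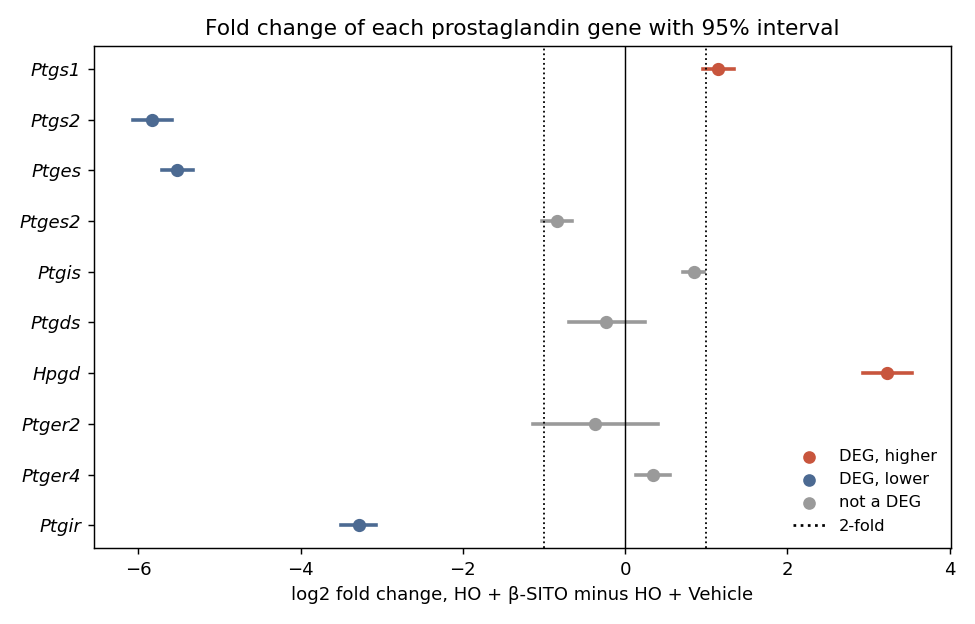
Log2 fold change of each prostaglandin gene, HO + β-SITO minus HO + Vehicle, with its 95% interval from edgeR's quasi-likelihood fit. Dotted lines mark 2-fold. Ptgs2 (-5.83), Ptges (-5.52) and Ptgir (-3.28) lie beyond 2-fold on the left and Hpgd (3.23) on the right. The intervals of Ptgs1, Ptges2 and Ptger2 each include a 2-fold line.

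Levels were compared between members as CPM per kilobase of exon, with exon lengths from GENCODE vM21. In the HO + Vehicle group Ptges led with 79.1 ± 1.12 and Ptgis followed with 62.6 ± 3.18 (SD, n = 3). Ptgir had 19.8 ± 0.871, Ptgs2 16.3 ± 0.405 and Ptges2 6.32 ± 0.248, and the other 5 members were below 5. In that group only the neighbours Ptgds (4.40 ± 0.562) and Ptgs1 (3.70 ± 0.233) differed by less than the sum of their SDs. In the HO + β-SITO group Ptgis led with 113 ± 4.18, and Hpgd with 14.0 ± 2.03 and Ptgs1 with 8.22 ± 0.626 came next. Ptges held rank 8 with 1.72 ± 0.255 and Ptgs2 rank 9 with 0.287 ± 0.0622. There the neighbours Ptgds (3.77 ± 1.38) and Ptges2 (3.54 ± 0.381) were not separated by the sum of their SDs. The same held for Ptger4 (2.50 ± 0.202) with Ptgir (2.02 ± 0.345) and for Ptgir with Ptges. Ptger2 was the lowest member in both groups, with 0.181 ± 0.0558 and 0.138 ± 0.0526.

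**Figure D4:**
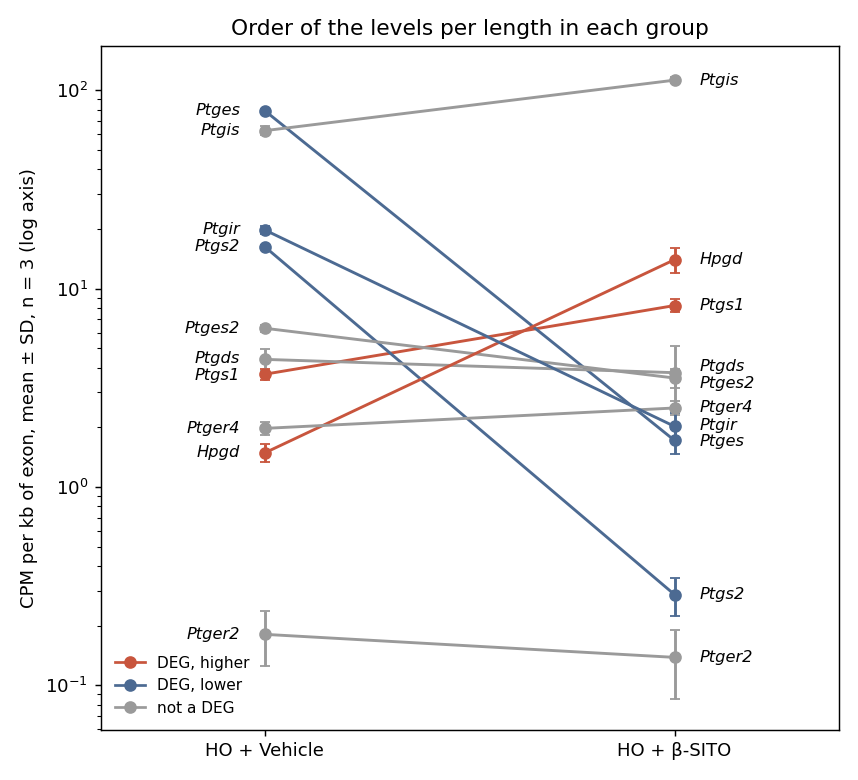
Mean level of each prostaglandin gene per kilobase of exon in the groups, as CPM per kb on a log axis, with SD bars and n = 3. Ptges goes from rank 1 to rank 8 and Hpgd from rank 9 to rank 2, while Ptgis stays among the top 2.

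Other genes of the pathway were taken from 6 lists of 84 genes, of which 67 were tested. Of these, 19 rose and 9 fell as DEGs, 41.8% against 22.8% of all genes tested, and their median log2 fold change was 0.53. The lists were chosen with earlier results of these data known, so a share above that of all genes does not test the pathway. By direction, 12.8% of all genes tested rose and 10.1% fell, the shares to set beside each list below. Genes that release or store arachidonic acid moved both ways. Of 16 tested genes for arachidonate release and reacylation, 5 fell and 3 rose (median 0.02). Pla2g4a, the cytosolic phospholipase A2 that frees arachidonic acid for the cyclooxygenases, fell from 136 ± 13.1 to 20.5 ± 1.48 CPM (mean ± SD, n = 3), with a log2 difference of -2.73 (adjusted p = 1.81e-13). Plaat3, another phospholipase, fell by 2.26 and Mgll, which breaks down the arachidonate-bearing lipid 2-arachidonoylglycerol, rose by 2.26. Pla2g4c had 21 to 34 counts in the HO + Vehicle libraries and 1 in each HO + β-SITO library. Acsl4, which activates arachidonic acid for storage in membranes, had a log2 fold change of -1.56.

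Of 8 tested other enzymes of prostanoid synthesis, 2 rose and 1 fell (median 0.70). Hpgds, the hematopoietic prostaglandin D synthase, rose from 4.13 ± 0.403 to 26.2 ± 4.15 CPM (mean ± SD, n = 3), with a log2 difference of 2.66 (adjusted p = 1.13e-10). Tbxas1, the thromboxane synthase, rose by 2.32 on the log2 scale. Akr1b3, an aldose reductase with prostaglandin F synthase activity, fell by 1.31. Ptges3, the cytosolic prostaglandin E synthase and HSP90 cochaperone p23, was lower without reaching 2-fold (-0.64, adjusted p = 4.34e-07). Across the 3 prostaglandin E synthase genes the log2 fold changes were therefore -5.52 (Ptges), -0.84 (Ptges2) and -0.64 (Ptges3).

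Of the 6 other prostanoid receptors 3 were tested. Tbxa2r, the thromboxane receptor, rose from 1.82 ± 0.468 to 12.6 ± 0.0862 CPM (mean ± SD, n = 3), with a log2 difference of 2.79 (adjusted p = 4.19e-10), so the synthase and the receptor of thromboxane both rose. Ptger3, the EP3 receptor, rose by 1.55 (adjusted p = 0.00686) from 1 to 9 counts per library to 17 to 21. Ptgfr, the prostaglandin F receptor, passed the test (0.95, adjusted p = 0.00506) but stayed under 2-fold. Ptger1 and Ptgdr2 had at most 5 counts in any library, and Ptgdr had 0 counts in all 6, which allows up to 0.154 to 0.189 CPM per library (3 counts, counting error only).

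Transport and breakdown changed in parts. Of 8 tested genes 2 fell and 1 rose (median 0.00). Slco2a1, the prostaglandin transporter that takes prostaglandins into cells ahead of oxidation by Hpgd, fell from 203 ± 12.0 to 52.9 ± 1.03 CPM (mean ± SD, n = 3), with a log2 difference of -1.94 (adjusted p = 3.72e-13) opposite to that of Hpgd. Slco3a1, an organic anion transporter that can carry prostaglandins, fell by 4.13 on the log2 scale. Akr1c14, an aldo-keto reductase, rose by 1.51. The exporter Abcc4 (-0.89) was lower without reaching 2-fold, and the reductases Ptgr1 (0.19), Ptgr2 (-0.06) and Zadh2 (0.06), which act on the products of Hpgd, did not pass the test (adjusted p = 0.115 to 0.534).

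The leukotriene and lipoxygenase branch draws on the same arachidonic acid. Of 8 tested genes 4 rose and 1 fell (median 1.29). Alox5, the 5-lipoxygenase, rose by 2.14, and its activating protein Alox5ap by 2.55 on the log2 scale. Ltc4s, the leukotriene C4 synthase, had 2 counts in each HO + Vehicle library and 25 to 44 counts in the HO + β-SITO libraries. Fpr2, a formyl peptide receptor that also binds lipoxin A4, had 256 to 282 counts against 0 to 3. Ggt5, which converts leukotriene C4 to D4, rose by 1.71. EP2, EP4 and IP signal through Gs and cyclic AMP. Of 24 tested genes of that arm 7 rose and 0 fell as DEGs (median 0.56), against 12.8% and 10.1% of all genes tested. With edgeR's test and no fold cutoff 19 were higher and 2 lower, against 33% and 33.8% of all genes tested. Adcy1 (3.47), Adcy2 (2.12) and Adcy5 (1.71), which make cyclic AMP, and Pde3b (2.05), which degrades it, had the largest increases.

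**Figure D5:**
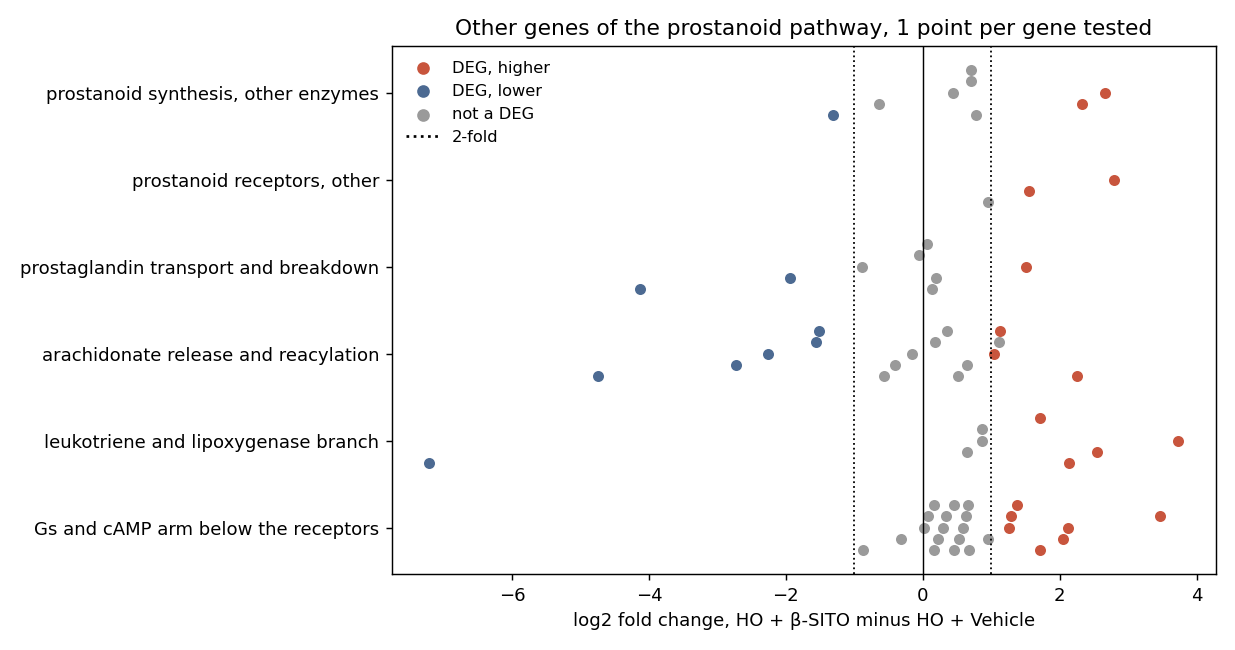
Log2 fold change, HO + β-SITO minus HO + Vehicle, of 67 other tested genes of the prostanoid pathway, with 1 point per gene, grouped by list, and dotted lines at 2-fold. DEGs lie on both sides for arachidonate release and on the right for the Gs and cAMP arm. The values of Fpr2, Pla2g4c and Ltc4s are model estimates for genes with 0 to 3 counts in each library of a group.

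Markers of other cells also differed between the groups. Of all genes tested, 12.8% rose and 10.1% fell as DEGs, the shares to set beside the counts of each marker list. All 10 endothelial markers were DEGs higher and their summed level was 220 to 253 CPM under vehicle and 898 to 934 CPM under β-SITO, with Cdh5 and Pecam1 up by 1.84 and Kdr by 2.40 on the log2 scale. Endothelial cells are known to express Ptgs1 and Ptgis. Of 12 macrophage markers 8 rose and 2 fell, and the sum was 1307 to 1430 CPM against 2675 to 3281 CPM. Lyz2 rose by 1.12, C1qb by 1.36 and Mrc1 by 4.79, while Adgre1 (-0.06) and Ptprc (-0.03) did not pass the test. The 2 that fell were Fcgr1 (-2.18) and Cd14 (-1.56), so the list did not move as a whole. Hpgds, Tbxas1, Alox5, Alox5ap and Ltc4s are known from macrophages and mast cells. Of 8 mast cell markers 2 were tested and rose, Kit and Mcpt4, and Tpsb2, Fcer1a and Ms4a2 had 0 counts in all libraries. Of 6 megakaryocyte and platelet markers, known sources of Ptgs1 and thromboxane synthase, 3 were tested and 2 rose, with a sum of 20.4 to 25.6 against 46.5 to 57.7 CPM, and Gp1bb had 0 counts in all libraries. Of the other lists, 6 of 10 smooth muscle and pericyte markers rose (1324 to 1458 against 2180 to 2528 CPM), as did 3 of 8 mesothelial and epicardial (118 to 125 against 168 to 206 CPM), 2 of 10 fibroblast and 3 of 12 cardiomyocyte markers. Of 8 neutrophil markers 2 were tested and fell, Csf3r and Mmp8, with Ly6g and Retnlg at 0 counts (21.5 to 23.0 against 5.45 to 7.85 CPM). The part of these markers in the changes of the prostaglandin genes was not tested.

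The genes whose pattern over the 6 libraries was most like that of Ptgs2, by the Euclidean distance of centred log2 CPM, were Il1rn (distance 0.222), 9330175E14Rik (0.272) and Hp (0.297). Il1rn, the interleukin-1 receptor antagonist, went from 218 to 3.76 CPM and Hp, which encodes haptoglobin, from 130.2 to 2.42 CPM on average. For Hpgd the nearest were Smim41 (0.254), Gm14207 (0.260) and Mmp11 (0.303), a matrix metalloproteinase that went from 18.8 to 168 CPM. With 6 libraries in 2 groups such a distance mostly reads the size of the group difference.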

How the data were processed

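Libraries were made from RNA extracted from NMCMs and sequenced as paired-end reads, 6 in all. The study's methods name an ABclonal mRNA-seq kit and the labels an Illumina TruSeq RNA kit, and which was used was not settled here. The authors deposited raw counts per gene from featureCounts, with no normalization. Per the labels, HISAT2, FastQC and the build GRCm39 were used, with versions and counting options not given in the sources used here. From the counts, genes were filtered with edgeR's filterByExpr, scaled with TMM and tested by edgeR's quasi-likelihood method, with the group as the only term and Benjamini-Hochberg adjustment over 14799 genes. The study used DESeq2, which served here as an alternative. SEs were derived from the log2 fold change and its F statistic. Exon lengths came from GENCODE vM21 (GRCm38), matched by gene identifier, since the table holds no length. Ratios used a pseudocount of 0.5. Tools were R 4.3.3, edgeR 4.0.16, limma 3.58.1 and DESeq2 1.42.0.

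The members and gene lists were chosen with earlier results of these data known. Named genes were the members, up to 4 DEGs with the largest change per pathway list, undetected receptors, the most abundant markers and the 3 nearest patterns. Others named were picked after their values were seen. 83 of 84 listed pathway genes were in the table.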

Additional observations from a re-analysis of the deposited data

How the results depend on the processing

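No paired analysis was possible because the groups share no replicate number (1 to 3 and 4 to 6). Tests were repeated with DESeq2, limma-voom and glmTreat, without the fold cutoff, with RLE, upper quartile or no scaling factors, with other filters, without mitochondrially encoded genes and without each library. Ptgs2, Ptges, Ptgir and Hpgd were DEGs in the same direction in all 16 alternatives. Without the fold cutoff 9892 genes, 8 members (4 higher) and 57 other pathway genes passed, and with glmTreat 1 member, Hpgd, was higher, since Ptgs1 no longer passed. Without 1 library in turn the counts were 3467 to 3610 DEGs, 5 members and 27 to 31 other pathway genes. The log2 fold change of Ptgds ran from -0.38 to 0.05 and was above 0 without T4 only. Upper quartile and library size scaling moved the median log2 fold change of all genes from -0.01 to 0.14 without changing a member's call, with the share of higher calls at 63.7% and 63.9% against 55.9%. The ratios kept their direction in all 7 alternatives each. Depth limits Ptger2 and the low arm of Ptgs2, which rests on 19 to 28 counts per library.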
